A study of Mus musculus with 12 samples.

Results

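The genes described here encode the machinery of cell division: 22 genes of mitosis and 18 genes of DNA synthesis. They were chosen by name from what their proteins do, with earlier results of these data known. Of these 40 genes, 39 were measured, 21 mitotic and 18 of S phase, among 12393 genes with a probe set that names them alone. The mitotic cyclin gene Ccnb1 had no such probe set. Where a gene had several probe sets, the one with the highest mean over all arrays stood for it.

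RNA came from whole fetal mouse kidneys (C57BL/6) grown in culture, 6 samples labelled wildtype and 6 labelled beta-catenin activated, each hybridised to 1 array. Every pregnant mouse, of either kind of sample, had received tamoxifen (2 mg per 40 g body weight) into the peritoneum at 10.5 days after conception. Kidneys were dissected at that stage and cultured for 3 to 4 days on membranes over F12 and DMEM medium with 5 µg/mL transferrin, 5 µg/mL insulin and 5 ng/mL selenium. Which cells carried activated beta-catenin, by which allele and under which Cre driver, is not stated in the labels, and neither is how long any one sample was cultured. The numbers in the sample titles form 2 blocks with a wide gap between them, called the lower and the higher run, and each block holds 3 arrays of each genotype. What separates the runs is not in the labels, so date, culture length and handling cannot be told apart from run. They also do not say whether samples of a group were separate litters or cultures, so p-values measure only the spread between these samples.

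Dividing cells copy their DNA in S phase and separate it in mitosis, and the transcripts for each task rise and fall with the cycle. Origins are licensed in G1 when Cdc6 and Cdt1 load the ring-shaped MCM helicase, cyclin E with its kinase starts synthesis, and primase, PCNA, Fen1 and Lig1 build and seal the new strands from deoxynucleotides that ribonucleotide reductase supplies. Cyclin A, cyclin B and Cdk1 then drive entry into mitosis, where Aurora and Polo kinases, kinesins and centromere proteins build the spindle and the checkpoint proteins Bub1 and Mad2 hold back the destruction of cyclins until chromosomes are attached. In the fetal kidney, division is intense in the nephron progenitors and ureteric tips, and it slows as nephron segments mature.

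Late and early cell-cycle genes are known to carry different promoter elements, and 5 promoters are shown as background. A part of these elements in the values of the arrays was not tested. Promoter sequence (RefSeq, GRCm38.p6) was at hand for 32 of the measured members, from 250 bases before to 50 bases after the start. The CHR element, bound by the MuvB complex of late cell-cycle genes, was searched as TTTGAA on both strands. It was present for 12 of 17 mitotic genes (70.6%) and for 2 of 15 S-phase genes (13.3%), against 17.9% of all 32851 promoters of that length. A member was counted if any of its promoters held a match, while the share over all counted each promoter singly, so the units differ. E2F sites were searched as TTTGGCGC, TTTCCCGC, TTTCGCGC and TTTGCCGC on both strands. They were present for 7 of 15 S-phase genes (46.7%), for 1 of 17 mitotic genes (5.88%), Cdk1, and in 2.26% of all promoters. The CCAAT box, searched as CCAAT on both strands, was present for 82.4% of the mitotic genes and 60.0% of the S-phase genes, and in 37.4% of all promoters. A match is a match of letters and not a measured binding site. The 150 bases before the start of 5 members are given 5′ to 3′ on the gene's strand, with matches to any of these motifs in capitals. Top2a and Cdk1 hold CHR and CCAAT matches, and Cdk1 also an E2F match. The Bub1 window holds CCAAT matches alone. Mcm6 holds E2F matches on both strands, 2 of which overlap at their ends, with CCAAT matches beside them, and Cdc6 a single E2F match.
Top2a, chr11:99024190-99024339, minus strand: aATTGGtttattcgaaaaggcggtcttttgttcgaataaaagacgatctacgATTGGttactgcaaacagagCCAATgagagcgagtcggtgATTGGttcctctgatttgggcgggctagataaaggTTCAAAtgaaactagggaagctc
Cdk1, chr10:69352913-69353062, minus strand: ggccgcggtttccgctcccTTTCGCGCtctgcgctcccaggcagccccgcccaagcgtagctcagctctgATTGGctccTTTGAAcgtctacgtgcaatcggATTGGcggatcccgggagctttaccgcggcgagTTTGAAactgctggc
Bub1, chr2:127831860-127832009, minus strand: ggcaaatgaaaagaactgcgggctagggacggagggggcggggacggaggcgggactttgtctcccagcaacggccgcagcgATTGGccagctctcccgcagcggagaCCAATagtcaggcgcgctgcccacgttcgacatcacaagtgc
Mcm6, chr1:128359706-128359855, minus strand: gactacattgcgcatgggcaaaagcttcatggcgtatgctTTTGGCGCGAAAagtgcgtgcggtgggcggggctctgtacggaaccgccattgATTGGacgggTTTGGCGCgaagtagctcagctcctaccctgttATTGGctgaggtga
Cdc6, chr11:98908001-98908150, plus strand: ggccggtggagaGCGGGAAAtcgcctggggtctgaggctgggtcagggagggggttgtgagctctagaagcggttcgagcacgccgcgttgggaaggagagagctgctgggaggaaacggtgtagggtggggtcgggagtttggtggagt

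Values are log2 of the deposited intensity plus 16 after quantile normalisation, and they compare arrays for 1 gene, not genes with each other. All members stood above the brightest bacterial control probe set (5.45 on this scale) on every array, except Cenpe and Tyms, each below it on 1 array. Arrays differed in a control measure, the 5′ signal over 3′ signal of the Gapdh control probe sets on the log2 scale, which falls as RNA breaks or cDNA stays short. This ratio stood at 0.07 on activated array 2, farthest from the rest, at -1.13 on wildtype array 2 and at -1.06 on activated array 6. On the remaining arrays it lay between -2.61 and -2.04. Markers of the fetal kidney were measured in every group, with Ret and Wnt9b of the ureteric bud below the brightest bacterial control on all 12 arrays. The summed intensity of 7 nephron progenitor markers was 540 to 743 on the activated arrays of the lower run, against 2251 to 2448 on the wildtype arrays of that run. In the higher run the sums were 1477 to 2045 and 1967 to 2348.

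Most of the division genes read lower in the higher run. In the wildtype kidneys, 12 of the 39 genes fell from the lower to the higher run and none rose (limma, adjusted p under 0.05 over all genes). Over all 12393 genes the share called lower in this comparison was 1.78%, and the share called in either direction 5.09%. The 12 genes that fell were Bub1, Mad2l1 and Top2a of mitosis and Ccne2, Mcm6, Prim1, Cdt1, Mcm2, Cdc6, Rrm2, Rrm1 and Gins1 of S phase. Of all 39, 38 had a negative difference, Cenpe alone being slightly positive at 0.06. In 29 of the 39, all 3 arrays of the higher run lay below all 3 of the lower run, which held for 12.9% of all genes: 12 of 21 mitotic and 17 of 18 S-phase genes. The median difference was -0.46 over the mitotic genes, -0.50 over the S-phase genes and -0.02 over all genes. In whole-organ RNA, fewer dividing cells and less of these transcripts per dividing cell cannot be told apart.

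How many genes passed depended on single arrays, since each arm held 3. Leaving out wildtype arrays 1 to 6 in turn gave 5, 9, 5, 2, 5 and 6 genes, and Bub1 was called each time. With no trend in the variance model 3 genes passed, Bub1, Ccne2 and Cdc6. With probe sets of the same gene averaged 7 passed, of which Ccne2, Cdc6, Mad2l1, Mcm2, Prim1 and Rrm1 were among the 12. With arrays centred on their medians 8 passed, of which Bub1, Ccne2, Cdc6, Cdt1, Mad2l1, Prim1 and Rrm2 were among the 12. The shares of all genes called in these fits are not given here. Whether calls were lost by the members or by all genes alike cannot be read from these counts. The direction was steadier, as the median over the 39 members stayed between -0.50 and -0.45 with an array left out.

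**Figure D1:**
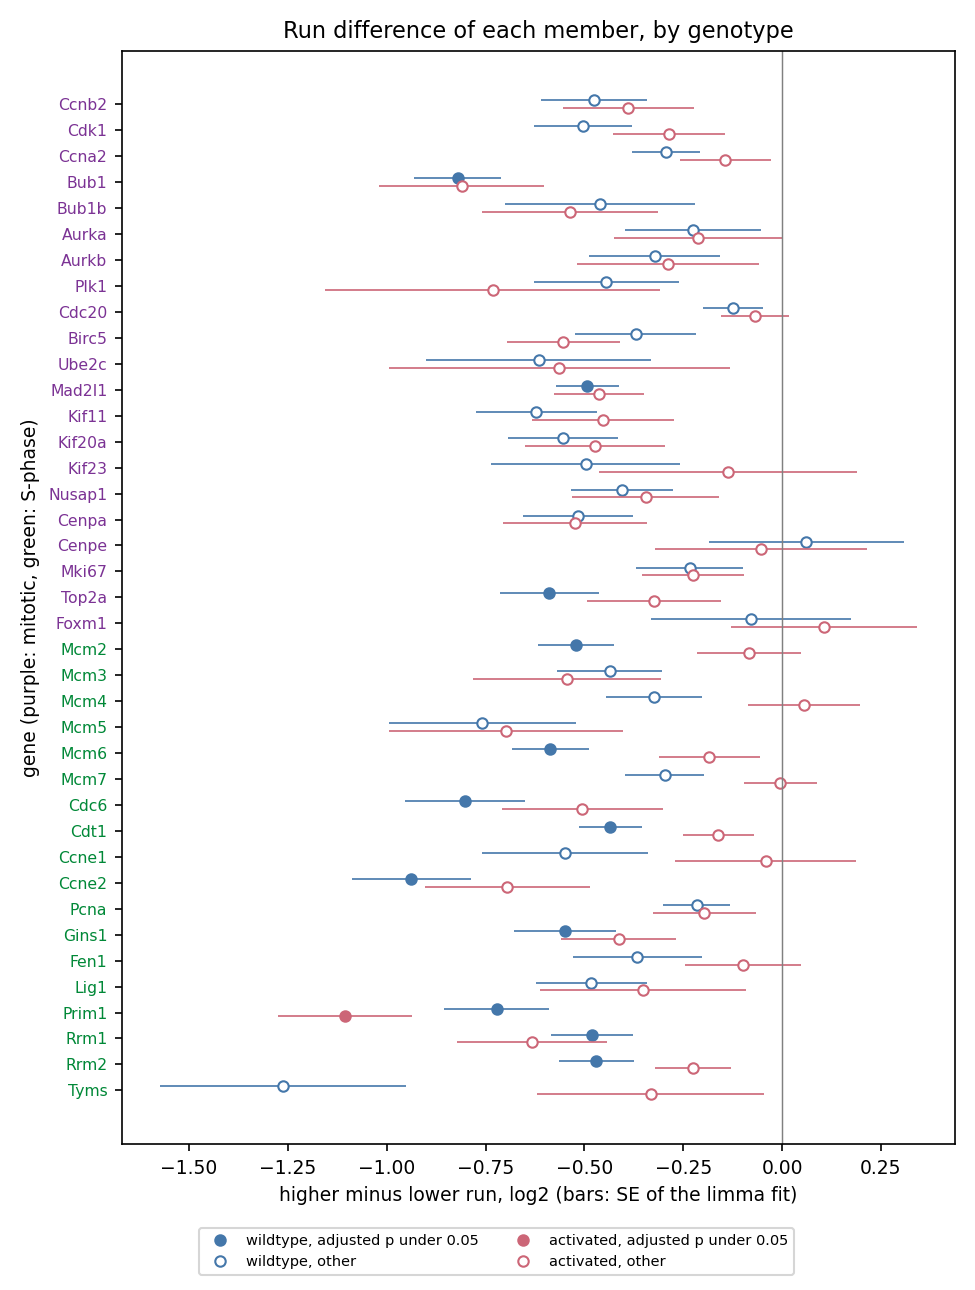
Difference between runs for each of the 39 measured genes (higher minus lower run, log2, bars are the standard error of the limma fit), wildtype in blue and activated in red, filled where the adjusted p was under 0.05. Nearly all points lie left of 0 in both genotypes, and 12 wildtype points and 1 activated point are filled.

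Among the mitotic kinases, Bub1, a kinase of the spindle checkpoint, gave the smallest adjusted p of the 39 genes in wildtype. Its values were 9.22, 9.07 and 9.25 on the wildtype arrays of the lower run and 8.34, 8.36 and 8.38 on those of the higher run. All 3 values of the higher run lay well below the lowest of the lower run. The difference was -0.82 (SE 0.11, limma adjusted p = 0.00404), and with an array left out its adjusted p ran from 0.00785 to 0.0314. A second Bub1 probe set gave -0.25 (adjusted p = 0.671), and with the mean of both the gene did not pass (adjusted p = 0.0791). The other kinases of the group had differences of -0.46 for Bub1b, -0.23 for Aurka, -0.32 for Aurkb and -0.44 for Plk1, none of which passed. Aurkb and Plk1 had runs that did not overlap, while Bub1b and Aurka overlapped.

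Mad2l1 encodes Mad2, the checkpoint protein that restrains Cdc20. It read 10.75, 10.78 and 10.71 on the wildtype arrays of the lower run and 10.20, 10.28 and 10.28 on those of the higher run. The runs did not overlap, and the difference was -0.49 (SE 0.08, limma adjusted p = 0.0102), which missed the threshold without wildtype array 4 (adjusted p = 0.0636). Cdc20, the activator of the complex that destroys cyclin B, differed by -0.12 with overlapping runs. Ube2c, the ubiquitin-conjugating enzyme of the same complex, differed by -0.62 and Birc5, the survivin subunit of the Aurora B complex, by -0.37, both with overlapping runs.

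Top2a, the topoisomerase that untangles replicated chromosomes, read 10.95, 10.78 and 10.87 on the wildtype arrays of the lower run and 10.36, 10.01 and 10.47 on those of the higher run. Its difference was -0.59 (SE 0.13, limma adjusted p = 0.0300), and it missed the threshold when any one of wildtype arrays 1 to 5 was left out (adjusted p up to 0.0973). With its probe sets averaged Top2a was at -0.29 (adjusted p = 0.302), its second probe set alone giving 0.01 (adjusted p = 0.983), and the call was also lost with arrays centred on their medians (adjusted p = 0.0736) and with no variance trend (adjusted p = 0.120). The proliferation antigen gene Mki67 differed by -0.23 and the mitotic transcription factor gene Foxm1 by -0.08, and both overlapped between runs. For the cyclins and their kinase the runs were apart without a pass: Cdk1 differed by -0.50 (adjusted p = 0.0547), Ccnb2 by -0.48 and Ccna2, the cyclin of S phase and early mitosis, by -0.29. Among spindle motors and centromere genes, Kif11 differed by -0.62 (adjusted p = 0.0540), Kif20a by -0.55, Cenpa by -0.52 and Nusap1 by -0.40, all with runs that did not overlap. Kif23, the kinesin of the central spindle, differed by -0.50 and overlapped.

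Origin licensing and cyclin E genes all read lower in the higher run of wildtype, and all but Ccne1 passed. Ccne2, a cyclin E that starts DNA synthesis, read 8.84, 8.92 and 8.54 in the lower run and 7.74, 8.001 and 7.74 in the higher run of wildtype. The difference was -0.94 (SE 0.15, limma adjusted p = 0.00966), lost by a small margin without wildtype array 4 (adjusted p = 0.0567). Cdc6 fell by 0.80 (adjusted p = 0.0195) and Cdt1 by 0.43 (adjusted p = 0.0169). Cdc6 read 8.44, 8.12 and 8.10 in the lower run against 7.40, 7.48 and 7.37 in the higher run, and Cdt1 11.31, 11.24 and 11.31 against 10.87, 10.92 and 10.77. Neither gene overlapped between runs, and each missed the threshold in 4 of 6 fits with an array left out (Cdc6 without wildtype arrays 1, 4, 5 or 6, adjusted p up to 0.0879, and Cdt1 without arrays 1, 3, 4 or 6, adjusted p up to 0.0764). The Cdt1 call was also lost with its probe sets averaged (-0.24, adjusted p = 0.377) and with no variance trend (adjusted p = 0.131), its other probe sets giving -0.34 (adjusted p = 0.378) and 0.05. Ccne1, the other cyclin E, differed by -0.55 with runs apart (adjusted p = 0.190).

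The MCM helicase has 6 subunits, all measured, and all 6 lay lower in the higher run of wildtype without overlap. Mcm6 read 10.46, 10.29 and 10.21 in the lower run and 9.68, 9.76 and 9.76 in the higher run. Mcm2 read 10.55, 10.30 and 10.42 and then 9.87, 9.95 and 9.89. Mcm6 fell by 0.59 (SE 0.10, limma adjusted p = 0.0109) and Mcm2 by 0.52 (SE 0.10, adjusted p = 0.0169). Mcm6 missed the threshold without wildtype array 4 (adjusted p = 0.0662), and Mcm2 without any one of arrays 1, 3, 4, 5 and 6 (adjusted p up to 0.0847). Both are read from probe sets whose suffix, by the maker's naming, marks probes that can match transcripts of other genes, as are Mcm3, Mcm4, Mcm7, Rrm2, Fen1, Aurkb and Cdc20. The second probe set gave -0.41 (adjusted p = 0.402) for Mcm6 and -0.62 (adjusted p = 0.0309) for Mcm2. The other subunits differed by -0.44 (Mcm3), -0.32 (Mcm4), -0.76 (Mcm5) and -0.30 (Mcm7) and did not pass.

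At the fork, Prim1, the catalytic subunit of primase, which lays down the RNA primers, read 9.63, 9.99 and 9.77 in the lower run and 9.23, 9.10 and 8.89 in the higher run of wildtype. Prim1 fell by 0.72 (SE 0.13, limma adjusted p = 0.0169) in wildtype, lost without wildtype arrays 3, 5 or 6 (adjusted p up to 0.0619). A second Prim1 probe set fell by 0.91 (adjusted p = 0.0286). Gins1, a subunit of the GINS complex that activates the helicase, fell by 0.55 (adjusted p = 0.0458), a call lost without any one of wildtype arrays 1, 3, 4, 5 and 6 (adjusted p up to 0.153). The Gins1 call was also lost with the values as deposited, without quantile normalisation (adjusted p = 0.0757), and with arrays centred on their medians (adjusted p = 0.161). It was lost as well with probe sets averaged (adjusted p = 0.0524) and with no variance trend (adjusted p = 0.117). Pcna, the sliding clamp, differed by -0.22, and the ligase gene Lig1 by -0.48, both with runs apart and no pass. Fen1, the flap nuclease of Okazaki fragments, differed by -0.37 and was the only S-phase gene whose wildtype runs overlapped.

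The deoxynucleotide genes Rrm1 and Rrm2, the large and small subunits of ribonucleotide reductase, fell by 0.48 (limma adjusted p = 0.0324) and 0.47 (adjusted p = 0.0251) in wildtype. Neither passed when any one of the 6 wildtype arrays was left out, with adjusted p up to 0.126 for Rrm1 and 0.0853 for Rrm2. Rrm1 also missed with the values as deposited (limma adjusted p = 0.0578) and in the interaction fit over 12 arrays (adjusted p = 0.0938). Rrm2 also missed with the Gapdh ratio as a covariate (adjusted p = 0.0572). Tyms, the thymidylate synthase gene, lay near the bacterial controls. It read 6.33, 6.62 and 6.75 in the lower run and 5.68, 5.57 and 4.66 in the higher run. Its difference of -1.26 was the largest of the 39 genes in size and did not pass (adjusted p = 0.0546), and its other 2 probe sets gave -0.39 and 0.01.

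**Figure D2:**
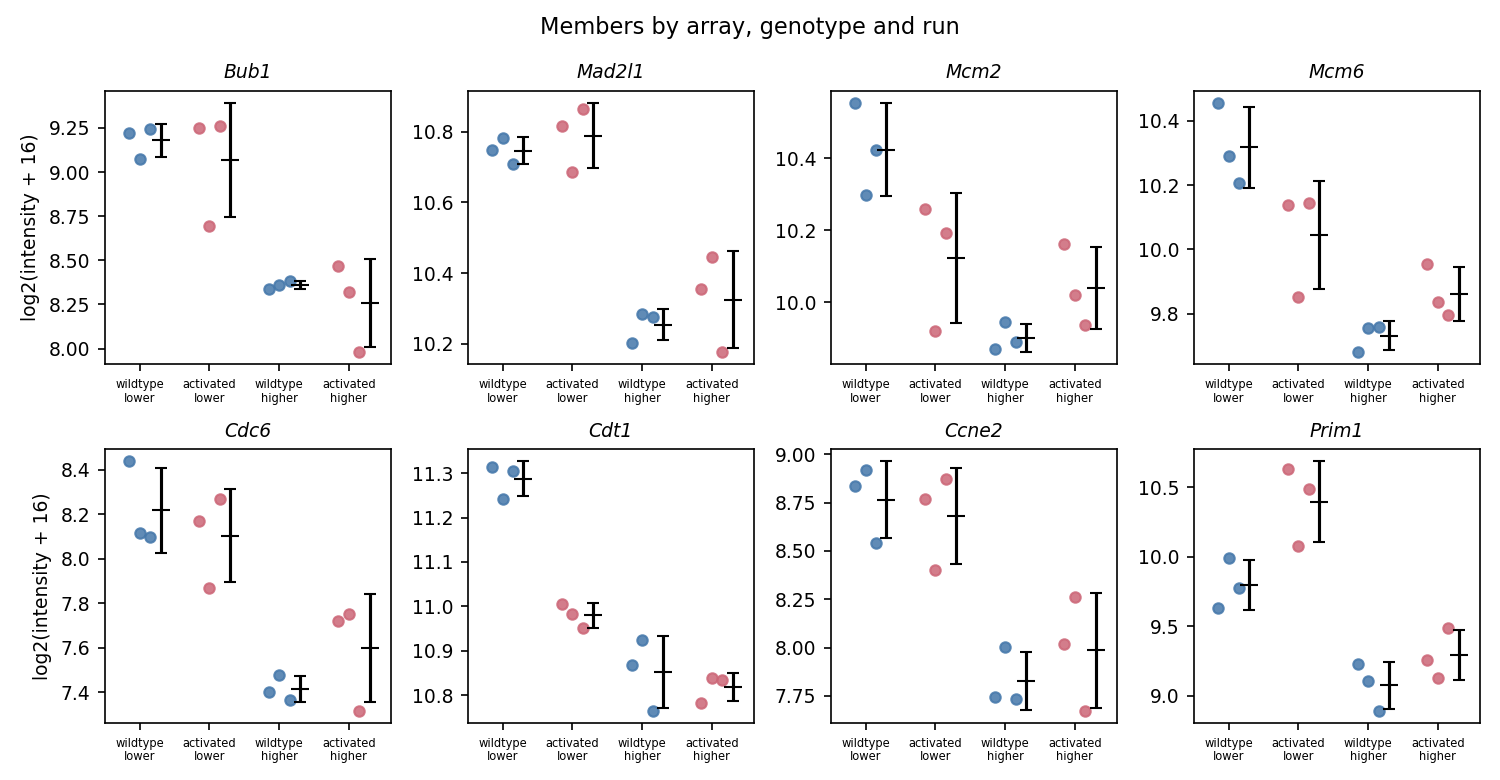
Log2(intensity + 16) of 8 members on each of the 12 arrays, by genotype and run, with the mean and SD of 3 arrays beside the points. The wildtype runs are apart in all 8 panels, and Prim1 is the only one whose activated lower-run arrays all lie above the wildtype arrays of that run.

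In activated kidneys most members also read lower in the higher run, and few passed. One of the 39 genes fell, Prim1, where 0.799% of all genes were called lower and 2.78% in either direction. Of the 39 differences 37 were negative, Foxm1 (0.11) and Mcm4 (0.06) being positive, and 18 genes had runs that did not overlap with the higher run below, against 8.72% of all genes. The median difference was -0.35 for the mitotic genes, -0.28 for the S-phase genes and 0.00 for all genes.

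Prim1 read 10.63, 10.07 and 10.48 on the activated arrays of the lower run and 9.26, 9.13 and 9.49 on those of the higher run. It fell by 1.11 (SE 0.17, limma adjusted p = 0.0101). The call was lost without activated array 1, 4 or 5 (adjusted p up to 0.0694), and the second Prim1 probe set gave -0.57 (adjusted p = 0.3996). Bub1 read 9.25, 8.69 and 9.26 and then 8.47, 8.32 and 7.98 in activated kidneys, a difference of -0.81, beside -0.82 in wildtype, that did not pass (adjusted p = 0.0857), and its second probe set gave 0.39. Mad2l1 differed by -0.46 (adjusted p = 0.0731), Birc5 by -0.55 (adjusted p = 0.0871), Rrm1 by -0.63 and Ccne2 by -0.70, all with runs apart. Without activated array 2, the array with the Gapdh ratio of 0.07, 3 members fell in this comparison, and with that ratio as a covariate 10 did. The share of all genes called under these settings is not given here, so neither count is a result about the members.

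With all 12 arrays in one fit and genotype as a term, a comparison added after the data were seen, 22 of the 39 genes fell from the lower to the higher run, 11 of each group, and none rose, where 4.19% of all genes were called lower and 11.1% in either direction. In 15 of the 39 all 6 arrays of the higher run lay below all 6 of the lower run, against 1.95% of all genes. Besides genes named above, the cyclin and kinase genes Ccnb2 (-0.43, adjusted p = 0.0157), Cdk1 (-0.39, adjusted p = 0.0178) and Ccna2 (-0.22, adjusted p = 0.0486) passed here, as did the motors Kif11 (-0.54, adjusted p = 0.00596) and Kif20a (-0.51, adjusted p = 0.00557). Leaving out any single array gave 17 to 24 genes, and centring each array on its median in place of quantile normalisation gave 11. The shares of 4.19% and 11.1% belong to the main fit, and those under these settings are not given here. The Ccna2 call was lost in 10 of the 12 fits with an array left out (adjusted p up to 0.103, without any wildtype array or without activated array 3, 4, 5 or 6), and Cdk1, Ccnb2, Kif11 and Kif20a kept theirs in all 12. With arrays centred on their medians Cdk1 (adjusted p = 0.153) and Ccnb2 (adjusted p = 0.0709) did not pass. Cdk1 also missed with no variance trend (adjusted p = 0.0574), and Kif11 with its probe sets averaged (-0.35, adjusted p = 0.0630). Kif20a passed under each of the 8 settings other than leaving out an array. Nusap1 was lost in 10 of the 12 fits with an array left out, Tyms in 9, Mcm3 in 6 and Mcm5 in 4. The remaining genes called here kept their calls in all 12. With probe sets averaged, Bub1 (limma adjusted p = 0.102), Top2a (adjusted p = 0.183) and Cdt1 (adjusted p = 0.389) were among those that did not pass.

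**Figure D3:**
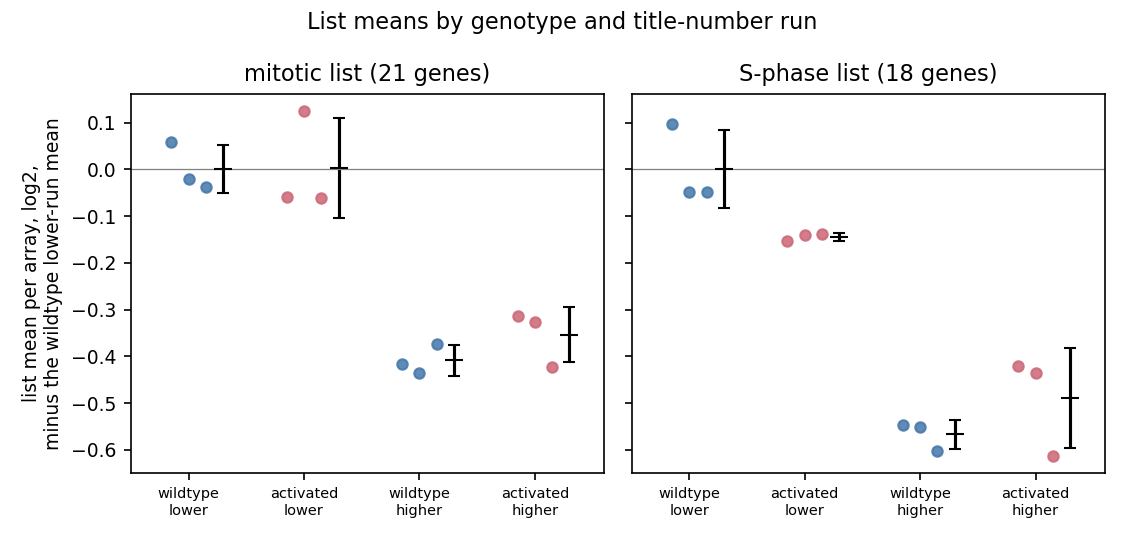
Mean log2 value of the 21 mitotic and the 18 S-phase genes on each array, relative to the wildtype mean of the lower run, with the mean and SD of 3 arrays beside the points. Over both panels the arrays of the higher run lie between -0.61 and -0.31 and those of the lower run between -0.15 and 0.13.

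Averaged over each group of genes, the S-phase mean lay further below its lower-run level than the mitotic mean in the higher run of wildtype. Relative to the wildtype mean of the lower run, the mitotic mean was -0.42, -0.44 and -0.37 on the wildtype arrays of the higher run, and the S-phase mean was -0.55, -0.55 and -0.60. The S-phase minus mitotic difference between runs was thus -0.16 in wildtype, and 0.01 in activated kidneys. It is a description with no test, because the lists were chosen with results known. With the median of members in place of the mean, each taken relative to its own wildtype level in the lower run, it was -0.10 in wildtype and 0.09 in activated kidneys. In activated kidneys the mitotic mean was -0.06, 0.13 and -0.06 in the lower run and -0.31, -0.33 and -0.42 in the higher run, and the S-phase mean -0.15, -0.14 and -0.14 and then -0.42, -0.44 and -0.61.

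No member passed the test by genotype. Over all 12 arrays, 0 of the 39 genes differed between activated and wildtype kidneys at an adjusted p under 0.05 (limma), and none at an unadjusted p under 0.05, where 0.0242% and 6.15% of all genes did so. With run as a term none of the 39 passed either, against 0.105% of all genes, and 2 had an unadjusted p under 0.05, against 8.79% of all genes. These were Prim1, higher by 0.41 in activated kidneys (adjusted p = 0.264), and Cdt1, at -0.17 (adjusted p = 0.439). The median difference in the 12-array comparison was 0.02 for mitotic genes, -0.07 for S-phase genes and -0.01 for all genes. The next smallest p-values of the mitotic group in the fit with run belonged to Birc5 (0.17, adjusted p = 0.689) and Kif20a (0.12, adjusted p = 0.813).

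Within the lower run, where 0.597% of all genes differed by genotype, none of the 39 passed, and 4 had an unadjusted p under 0.05, with 7.07% of all genes doing so. The S-phase genes leaned lower: 14 of 18 had a negative difference, with a median of -0.16, against 0.01 for the mitotic genes and -0.03 for all genes. Foxm1 of the mitotic group and Mcm2, Mcm6, Mcm7, Rrm2, Cdt1 and Ccne1 of S phase, 7 members in all, had all activated arrays below all wildtype arrays, which held for 7.09% of all genes, or 879 of 12393. Cdt1 showed it most closely, with 11.01, 10.98 and 10.95 on the activated arrays against 11.31, 11.24 and 11.31 on the wildtype arrays, a difference of -0.31 (unadjusted p = 0.00861, limma adjusted p = 0.344). Prim1 went the other way, with all 3 activated values above the 3 wildtype ones, as in 5.41% of all genes, and a difference of 0.60 (adjusted p = 0.265). Its second probe set gave -0.19, of opposite sign. With array weights Prim1 passed in this comparison (0.77, adjusted p = 0.0176), and this was the only genotype call of a member under the settings run.

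Ccne1 read 6.93, 7.04 and 6.85 on the activated and 7.46, 7.75 and 7.36 on the wildtype arrays of the lower run, which do not overlap. Its difference of -0.59 did not pass (limma adjusted p = 0.533), and in the higher run it was -0.08. Tyms had the largest genotype difference by size in the lower run, -0.67 (adjusted p = 0.715), with 5.61, 5.65 and 6.42 on the activated arrays, and it was 0.26 in the higher run. Plk1 differed by 0.29 in the lower run, where activated array 2 read 8.64 and the other 2 activated arrays 7.62 and 7.36.

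In the higher run 0.00807% of all genes differed by genotype, none of the 39 did, and none had an unadjusted p under 0.05, where 6.36% of all genes had. Ccna2 and Mcm6 had all activated arrays above all wildtype arrays, against 5.60% of all genes. The medians were 0.05 for mitotic genes, 0.09 for S-phase genes and 0.00 for all genes.

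The effect of genotype was compared between runs by the interaction of both. No member passed, where 0.331% of all genes did. An unadjusted p under 0.05 was reached by 5 members, the S-phase genes Mcm2, Mcm6, Cdt1, Tyms and Mcm7, and by 6.11% of all genes. All 5 had a more positive genotype difference in the higher run, and 2.97% of all genes reached that p in that direction. Mcm2 read 10.26, 9.92 and 10.19 on activated arrays of the lower run and 10.16, 10.02 and 9.94 on those of the higher run, so that its interaction of 0.44 (adjusted p = 0.568) came with the fall of 0.52 in wildtype and a difference of -0.08 in activated kidneys. Mcm6 had an interaction of 0.40 (adjusted p = 0.660). In the mitotic group the smallest p-values were those of Top2a (0.26) and Ccna2 (0.15), both with an adjusted p = 0.999. The median interaction was 0.26 over S-phase genes, 0.05 over mitotic genes and 0.02 over all genes.

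**Figure D4:**
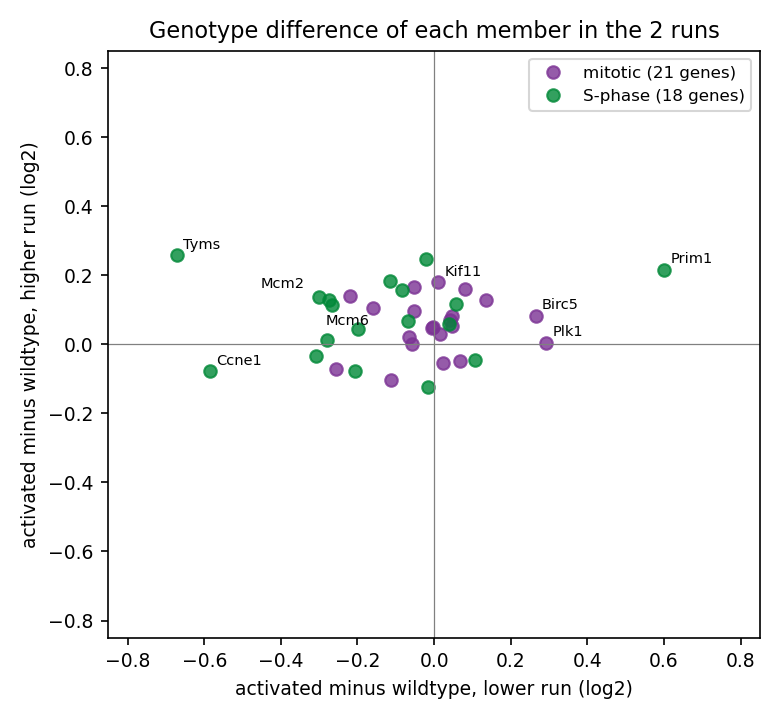
Activated minus wildtype difference (log2) of each member in the lower run (horizontal axis) and in the higher run (vertical axis), mitotic genes purple and S-phase genes green. Prim1 (0.60), Ccne1 (-0.59) and Tyms (-0.67) lie farthest from 0 along the horizontal axis.

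Other genes of the same processes, from lists of known function, also lay lower in the higher run. Of 43 measured further mitotic genes 9 fell in wildtype and none rose, with a median of -0.26, where 1.78% of all genes were called lower. They were Cenpf, Cenpn, Kif2c, Hmmr, Nuf2, Spc25, Smc2, Ncapg and Hmgb2, kinetochore, spindle and chromosome condensation genes, with Nuf2 at -1.05 and Ncapg at -0.91. Of 40 measured further replication genes 15 fell and none rose, with a median of -0.54, against the same 1.78% of all genes. They included the licensing inhibitor gene Gmnn (-0.93, limma adjusted p = 0.00222), the origin-firing kinase gene Cdc7 (-0.98, adjusted p = 0.00291), the clamp loader gene Rfc4 (-1.12, adjusted p = 0.00388), the helicase gene Hells (-0.73, adjusted p = 0.00809) and the polymerase genes Pola1, Pola2, Pold1 and Pole2 (-0.67, -0.63, -0.88 and -0.69). In activated kidneys none of either list passed, with medians of -0.24 and -0.35. By genotype none of either list passed in any comparison. The smallest p-values there, in the fit with run, were those of the spindle gene Ckap2 (0.27, adjusted p = 0.450), the kinetochore gene Spc25 (0.15, adjusted p = 0.564), the dUTPase gene Dut (-0.27, adjusted p = 0.532) and the origin gene Orc1 (-0.26, adjusted p = 0.676).

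Of 7 measured genes of inhibitors of cyclin-dependent kinases, 2 rose from the lower to the higher run in wildtype, Cdkn1a and Cdkn2b, and 1 in activated kidneys, Cdkn1a, and none fell (limma). Of all genes, 3.31% were called higher in wildtype and 1.98% in activated kidneys. The difference was positive for 5 of the 7 and negative for 2 in each genotype, and Cdkn2a, among the 5, lay near the bacterial controls. Cdkn1a encodes p21, which binds cyclin E and cyclin A kinases. It read 9.22, 8.21 and 8.93 on the wildtype arrays of the lower run and 10.98, 10.67 and 11.07 on those of the higher run. On activated arrays it read 10.13, 9.82 and 10.14 and then 10.73, 10.84 and 10.55. The runs did not overlap in either genotype, and the activated arrays of the lower run lay between the wildtype runs. Cdkn1a rose by 2.12 in wildtype (SE 0.23, limma adjusted p = 0.00162) and by 0.67 in activated kidneys (SE 0.13, adjusted p = 0.0306), the latter lost without activated array 1, 3, 4, 5 or 6 (adjusted p up to 0.170) and in 5 of 10 other settings. Its interaction was -1.45 (adjusted p = 0.0557) and its genotype difference in the lower run 1.25 (adjusted p = 0.0592), neither of which passed.

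Cdkn2b, the gene of p15, which blocks the cyclin D kinases, read 4.89, 5.13 and 5.61 in the lower run and 7.29, 7.40 and 7.17 in the higher run of wildtype. It rose by 2.08 (limma adjusted p = 0.00222), from values near the bacterial controls, and the call held with any one array left out. In activated kidneys it differed by 0.70 (adjusted p = 0.209). Cdkn1b differed by 0.54 in wildtype and 0.59 in activated kidneys, and Cdkn1c, an imprinted inhibitor gene, by -0.22 and -0.02, none of which passed. Of the other inhibitors of the cyclin D kinases, Cdkn2c differed by 0.70 in wildtype (adjusted p = 0.0896) and 0.53 in activated kidneys (adjusted p = 0.412). Cdkn2a differed by 0.26 in each and Cdkn2d by -0.11 and -0.20, and none of the 3 passed. Cdkn2a read 4.21 to 5.58, below the brightest bacterial control (5.45) on all arrays but activated array 4. By genotype Cdkn1c had a difference of -0.64 in the fit with run (adjusted p = 0.614), with values from 10.01 to 12.09 spread over all groups.

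Of 23 measured regulators of G1, cyclin D, E2F, Myc and pocket protein genes among them, 1 fell in wildtype, Skp2, and none passed in activated kidneys. Over all genes 1.78% were called lower in wildtype, so a single call in this list is near that share. Skp2 encodes the ubiquitin ligase subunit that marks p27 for destruction, and is named with Ccnd1 and Ccnd2 after their values were seen. It read 10.53, 10.19 and 10.20 and then 9.53, 9.61 and 9.46 in wildtype, a fall of 0.77 (limma adjusted p = 0.00671). The cyclin D genes had differences of -0.58 (Ccnd2, adjusted p = 0.0546) and -0.23 (Ccnd1) in wildtype and of -0.71 (Ccnd2, adjusted p = 0.0506) and -0.55 (Ccnd1, adjusted p = 0.0637) in activated kidneys. By genotype, with run as a term, the smallest p-values were those of Mycn (-0.36, adjusted p = 0.393), E2f8 (-0.43, adjusted p = 0.593), Wee1 (-0.14, adjusted p = 0.690) and Mybl2 (-0.27, adjusted p = 0.731).

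**Figure D5:**
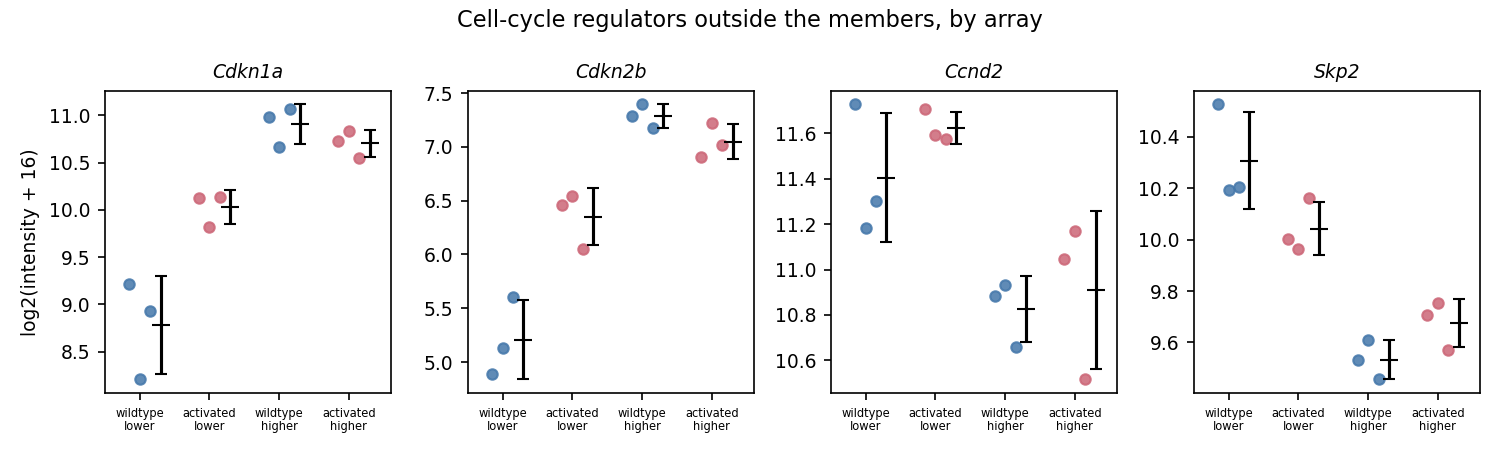
Log2(intensity + 16) of Cdkn1a, Cdkn2b, Ccnd2 and Skp2 on each array, by genotype and run, with the mean and SD of 3 arrays beside the points. Both inhibitor genes are lowest on the wildtype arrays of the lower run, where Cdkn1a reads 8.21 to 9.22, and Skp2 is lower in the higher run in both genotypes.

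Some markers of several cell types were called between runs as well. Over all genes 3.31% were called higher and 1.78% lower in wildtype, and 1.98% and 0.799% in activated kidneys. A list with 1 called marker is no measure of its cell type. The summed intensity of 5 erythroid markers was 10625 to 11903 on wildtype arrays of the lower run and 2630 to 3126 on those of the higher run, and 10096 to 11484 and 1413 to 2925 on the activated arrays, with 3 of the 5 genes falling in each genotype. Hbb-y made up most of these sums. It read 13.24 to 13.38 on the wildtype arrays of the lower run and 11.27 to 11.52 on those of the higher run. Alas2 and Klf1 read 4.13 to 5.77 over all arrays, near the brightest bacterial control at 5.45. Klf1 did not fall in wildtype, at 4.67, 5.46 and 4.30 and then 5.27, 5.26 and 5.00. The sum of 6 macrophage markers was 651 to 1138 and 1208 to 1564 in wildtype, and 579 to 1044 and 1454 to 1642 in activated kidneys, with 2 of 6 rising in each. In wildtype, 1 of 4 podocyte markers (sums of 837 to 902, then 1038 to 1174, mostly from Wt1) and 1 of 5 proximal tubule markers (116 to 162, then 251 to 361) rose. Of 7 stromal markers there, 1 rose and 2 fell (7485 to 8162, then 6213 to 7104), and 2 of 5 neuronal and glial markers fell (592 to 781, then 370 to 494). In activated kidneys 2 of 7 nephron progenitor markers, 1 stromal and 2 neuronal and glial markers rose. The part of these cell types in the fall of the division genes was not tested.

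The members were correlated over the 12 arrays, and less so once the run means were removed. The median Pearson r over pairs was 0.477 among the 210 mitotic pairs, 0.609 among the 153 S-phase pairs and 0.557 between the groups. With the mean of each run removed the medians were 0.0664, 0.144 and 0.0946, and with the mean of each genotype removed 0.484, 0.636 and 0.580. After each genotype and run mean was removed, they were 0.0341, 0.0721 and 0.0753. These pairs share the same arrays and their processing, and the values are descriptions. Outside the cell-cycle lists, the gene most like the mitotic mean over 12 arrays was 6330403K07Rik (r = 0.970), followed by Fbn2 (0.961), Prkra (0.958), Pnn (0.957) and Cct8 (0.944). The gene most like the S-phase mean was Pclaf (r = 0.970), which encodes a factor that binds PCNA, followed by Tia1 (0.951), Hsph1 (0.946), Fbn2 (0.942) and Mrpl49 (0.939).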

How the data were processed

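The deposited values were linear intensities per probe set on 12 arrays, 1 per sample, from 0.0693 to 23037.5; per the labels' protocols, Trizol RNA was labelled with a 3′ in vitro transcription kit (Affymetrix). Neither the labels nor the file name the summarising software. The 2% trimmed mean of each array lay between 250.1 and 250.13, so that the authors appear to have scaled the arrays to one mean, and arrays still differed in quartiles by up to 0.29 on the log2 scale. From these deposited intensities, log2(intensity + 16) was quantile normalised between arrays, and 20380 probe sets with 1 symbol in the platform annotation gave 12393 genes, each by its probe set of highest mean; 691 probe sets with several symbols, 1555 with none and 64 controls were not tested. All 39 measured members matched RefSeq by gene identifier.

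Tests were made with limma 3.58.1 in R 4.3.3 (lmFit, eBayes with a variance trend, Benjamini-Hochberg over all genes, threshold 0.05), tested on simulated data with known changes. There were 7 planned comparisons: genotype over 12 arrays, with run as a term, within each run, their interaction, and run within each genotype. A comparison of runs over 12 arrays was added after the data were seen. The number of arrays, 3 per genotype and run, limits the precision; the files give no depth. Members, lists and tests were chosen with earlier results of these data known. Genes named with values were members that passed (up to 8, smallest adjusted p first), the 2 of each group with the smallest p in the fit with run and in the interaction, up to 4 per further list by p in the fit with run, and the 5 genes most correlated with each group mean; the remaining members are given by role. Alternatives were the values as deposited, median centring, a pseudocount of 1, dropping the dimmest 40% of genes, averaging the probe sets, no variance trend, array weights, the Gapdh ratio as a covariate and leaving out each array. Figures were drawn with matplotlib 3.10.9 in Python 3.11.15.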

Additional observations from a re-analysis of the deposited data

Results flagged for a closer look

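Of 82 checks of a group of 6 arrays for 1 distant array, 2 found one. Each group pooled both runs of a genotype, and most members differed between runs. The count therefore cannot be set against the chance rate of about 1 in 20, which holds for a single uniform group. Pcna read 12.35 on activated array 2, the array with the Gapdh ratio of 0.07, while the other activated arrays read 11.78 to 11.91. Tyms read 6.42 on activated array 3, and the other activated arrays 5.48 to 5.69, close to the brightest bacterial control at 5.45. Apart from these checks, Mcm6 had all activated arrays below all wildtype arrays in the lower run and above them in the higher run. The test of that difference, the interaction of genotype and run, gave 0.40 (SE 0.16, unadjusted p = 0.0228, limma adjusted p = 0.660), which did not pass.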

How the results depend on the processing

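With 3 arrays per genotype and run, the count of members called between runs moved with the settings, while its direction did not. In wildtype (12 called) it was 7 with the mean of all probe sets, 3 with no variance trend, 22 in the fit over 12 arrays and 2 to 9 with an array left out, and 8 to 15 under the other settings. In activated kidneys (1 called) it was 0 with the mean of all probe sets, 0 with no variance trend, 4 with array weights, 10 with the Gapdh ratio as a covariate, 5 from the interaction fit, 22 in the fit over 12 arrays and 0 to 3 with an array left out. Over 12 arrays (22 called) it was 11 with arrays centred on their medians and 17 to 24 with an array left out. Of all genes, 5.09% were called in wildtype, 2.78% in activated kidneys and 11.1% over 12 arrays in the main fits. The shares under the other settings are not given here, so a change in these counts is no result about the members. The count by genotype stayed at 0 in every comparison and setting except 1 in the lower run with array weights. The S-phase minus mitotic difference, -0.06 by genotype over 12 arrays, -0.15 in the lower and 0.02 in the higher run, became -0.14, -0.24 and -0.044 with the median of members, each relative to its wildtype lower-run mean, a reference chosen after the data were seen; for runs (-0.16 in wildtype, 0.01 in activated kidneys) it became -0.10 in wildtype (-0.093 without the dimmest 40% of genes) and 0.088 in activated kidneys. With an array left out it ranged from -0.09 to -0.04, -0.18 to -0.09, -0.01 to 0.05, -0.18 to -0.12 and -0.05 to 0.05 in these comparisons. Uncalled differences near 0 changed sign: Top2a by genotype with run as a term was 0.056 with array weights, 0.073 with the covariate and 0.0059, 0.059 and 0.017 without wildtype array 1, activated array 2 or activated array 6, and in the lower run -0.25 to 0.0021 with an array left out, positive without activated array 2; Kif20a there was -0.012 to 0.161 with an array left out, negative without wildtype array 3; Ccna2 with the mean of all probe sets was 0.028 in the lower run and -0.050 in the interaction. The cause of these moves was not tested. Of the 33 further probe sets of 20 members, 25 had the sign of the chosen one between the wildtype runs and 3 passed, all lower; between the activated runs 24 did and 0 passed, with limma. No paired analysis was possible because the sample titles share no replicate numbers between the groups.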
